A study of Mus musculus with 17 samples.

Results

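The genes described here are 49 ribosome biogenesis genes, chosen as a given list of nucleolar proteins and ribosome assembly factors, out of 50600 genes in each count file. All 49 were found by symbol, and all 49 passed the filter on low counts that left 21494 genes for testing. RNA was sequenced from 14 separate murine tumors and 3 healthy brains, in a model of rhabdoid tumor, a childhood cancer defined by loss of Smarcb1. Levels are given as CPM, counts scaled to library size. The groups were syngeneic grafts of tumor into the flank (n = 3), extracranial tumors (n = 4), tumors of the central nervous system (CNS) of the Myc subtype (n = 4), CNS tumors of the SHH subtype (n = 3) and healthy brain (n = 3). All mice were of the strain C57BL/6J. The tumors of each group carried the genotype SMARCB1 -/-, and the brains were WT. The sources used here do not say which promoter drove the deletion, the age of the mice, or whether tumors shared an animal or grafts shared a parent tumor, so each p-value reflects the spread among these libraries and nothing wider. The brain is the control tissue for each tumor group, although the extracranial tumors and flank grafts grew outside the brain.

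Ribosome biogenesis begins in the nucleolus, where RNA polymerase I transcribes the ribosomal RNA precursor, snoRNA-guided particles modify it, and assembly factors, helicases and GTPases fold and cut it into the small and large subunits. Myc and its paralogs Mycn and Mycl bind DNA with Max, preferably at the E-box CACGTG, and genes of ribosome biogenesis are among their best known targets. Myc is also known to raise transcription by RNA polymerase I and III and of ribosomal protein genes, which ties cell growth to its level.

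The E-boxes of the members' promoters are shown because the list was chosen for its relation to Myc. RefSeq promoter windows of 300 bases (250 before the gene start and 50 from it, build GRCm38.p6) were at hand for 42 of the 49 members, and 11 of these genes (26.2%) held CACGTG, against 2187 of 27025 genes with a window (8.09%). The motif reads the same on both strands and no other motif was searched. Counting the bases before the start alone, 4 of the 42 genes (9.52%) held it, against 6.86% of all genes. In 7 of the 42 genes (16.7%) it reached into the first 50 bases of the gene, against 1.55% of all genes. The members' windows were also richer in G and C (median 59.3%, against 52.7% over all windows), and of 13137 genes with a window at or above the members' lower quartile of G and C, 10.95% held the motif. A match is a description of letters, not of binding. In the sites below, written 5′ to 3′ on the strand of the gene, capitals mark CACGTG.
Utp4 (chr8:106893643-106893672, plus strand): tgcgcaagcgcgCACGTGgggccggggcgg
Utp20 (chr10:88826765-88826789, minus strand): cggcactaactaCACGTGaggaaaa
Wdr43 (chr17:71616220-71616249, plus strand): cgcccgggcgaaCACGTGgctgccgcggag
Pno1 (chr11:17211540-17211564, minus strand): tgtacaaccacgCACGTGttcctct
Imp4 (chr1:34439696-34439725, plus strand): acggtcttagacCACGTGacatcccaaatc
Utp18 (chr11:93885769-93885798, minus strand): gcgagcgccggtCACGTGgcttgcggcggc
Pes1 (chr11:3963965-3963994, plus strand): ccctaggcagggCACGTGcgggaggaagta
Nop2 (chr6:125131811-125131840, plus strand): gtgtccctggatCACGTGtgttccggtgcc
Grwd1 (chr7:45830740-45830767, minus strand): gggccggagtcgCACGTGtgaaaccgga
Nle1 (chr11:82908355-82908384, minus strand): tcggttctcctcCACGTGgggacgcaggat
Rrn3, the 250 bases before its start (chr16:13780449-13780698, plus strand): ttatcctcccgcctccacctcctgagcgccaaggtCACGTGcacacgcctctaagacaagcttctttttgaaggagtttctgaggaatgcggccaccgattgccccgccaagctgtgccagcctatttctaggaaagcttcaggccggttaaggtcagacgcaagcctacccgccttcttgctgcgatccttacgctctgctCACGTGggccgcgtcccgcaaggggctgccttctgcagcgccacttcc
The first base of the motif lay at position 3 from the start in Pes1, 16 in Utp4, 18 in Wdr43, 24 in Nle1, 35 in Grwd1 and 38 in Utp20 and Pno1. It lay before the start in Utp18 (-20), Nop2 (-60) and Imp4 (-121), and Rrn3 was the member with more than 1 motif, at -48 and -215.

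Library depth ran from 18685672 to 130835711 counts, and the lowest count of a member in a library was 340. Smarcb1 was lower in each tumor (2.52 to 33.2 CPM) than in each brain (132, 121 and 119 CPM). Some libraries held transcripts of other tissue. Over 6 oligodendrocyte markers, SHH tumor 1 summed to 9721 CPM, SHH tumors 2 and 3 to 58.9 and 214 CPM, and the brains to 77.2 to 96.1 CPM. Healthy brain 1 reached 1356 CPM over 5 pituitary markers and 235.4 CPM over 6 skeletal muscle markers, and no other brain exceeded 0.883 and 5.03 CPM. Over 6 fibroblast markers it reached 3890 CPM, against 656 and 429 CPM in Healthy brains 2 and 3. Myc tumor 1 had 188.5 CPM of the pituitary markers, and extracranial tumors 1 and 2 had 83.4 and 67.8 CPM of the muscle markers. The 8 neuron markers summed to 139.9 to 202.3 CPM in grafts, 44.2 to 394.9 CPM in extracranial tumors, 88.6 to 430.4 CPM in Myc tumors, 502.8 to 3652 CPM in SHH tumors and 3686 to 4071 CPM in brains. Counts of members without Healthy brain 1 and SHH tumor 1 are given beside the results.

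Myc itself split the groups. It had 163, 153 and 104 CPM in grafts, 97.6, 137, 201 and 105 CPM in extracranial tumors and 133, 165, 97.3 and 113 CPM in Myc tumors. It had 10.2, 20.03 and 6.53 CPM in SHH tumors and 20.4, 28.2 and 30.6 CPM in brains. Each graft, extracranial tumor and Myc tumor lay above each SHH tumor and each brain, with a log2 fold change of 2.40 ± 0.39 (adjusted p = 0.000203) in grafts over brain, 2.36 ± 0.38 (adjusted p = 0.000197) in extracranial tumors over brain, 2.27 ± 0.38 (adjusted p = 0.000268) in Myc tumors over brain and 3.37 ± 0.40 (adjusted p = 6.12e-05) in Myc over SHH tumors. Mycn ran the other way. It was at most 2.62 CPM in each graft, extracranial tumor and Myc tumor, and had 27.4, 85.5 and 249.4 CPM in SHH tumors and 29.1, 56.4 and 47.2 CPM in brains. Mycl, the third paralog, likewise had at most 3.55 CPM in those tumors, against 39.5, 76.1 and 77.0 CPM in SHH tumors and 96.8, 93.8 and 87.7 CPM in brains.

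The members as a group were higher in the tumors with high Myc. Their geometric mean level was 75.6, 74.0 and 78.0 CPM in grafts, 59.6, 58.3, 84.6 and 67.5 CPM in extracranial tumors and 76.7, 83.6, 83.5 and 69.6 CPM in Myc tumors, against 34.7, 44.4 and 49.6 CPM in SHH tumors and 41.4, 42.1 and 44.2 CPM in brains. The lowest library with high Myc, extracranial tumor 2 at 58.3 CPM, lay above the highest SHH tumor at 49.6 CPM, and the SHH tumors overlapped the brains. Summed levels of Myc and Mycn split the libraries in the same way except for SHH tumors 2 and 3. The sum was 256 CPM in SHH tumor 3, the highest of the 17 libraries, and 105.6 CPM in SHH tumor 2, beside 97.6 to 203 CPM in the grafts, extracranial tumors and Myc tumors. It was 37.7 CPM in SHH tumor 1 and 49.5, 84.6 and 77.8 CPM in the brains, below each of those tumors. With Mycl added, the sum no longer split the libraries. This wider sum was 146, 178 and 165.5 CPM in brains and 77.2, 182 and 333 CPM in SHH tumors. In grafts, extracranial tumors and Myc tumors it ran from 99.8 to 206 CPM. In bulk RNA, more cells that express these genes and more of their RNA per cell cannot be told apart.

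**Figure D1:**
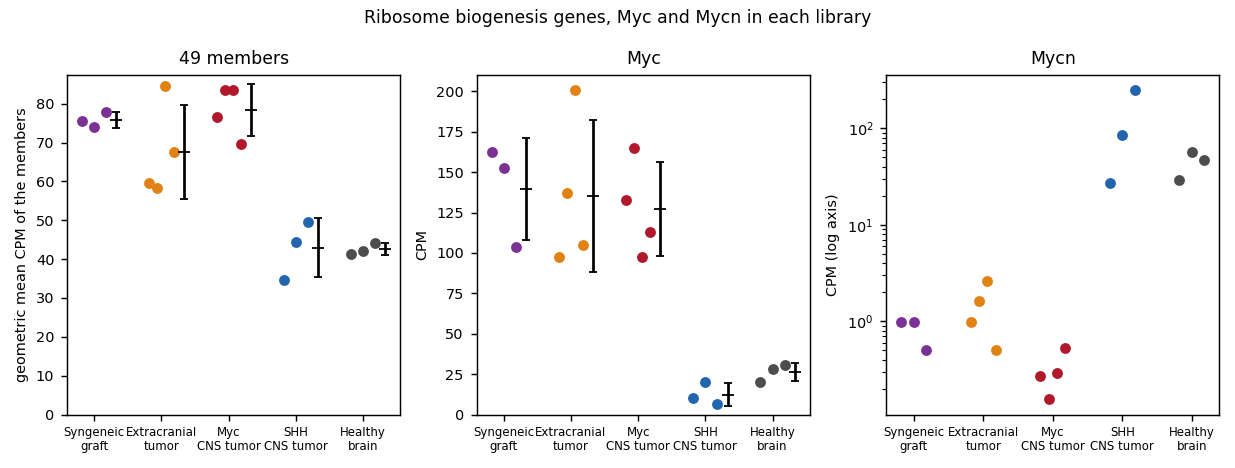
Level of the 49 members (geometric mean CPM), Myc (CPM) and Mycn (CPM, log axis) in each of 17 libraries. Points are libraries by group and black bars are mean ± SD (not drawn for Mycn). Libraries with Myc of 97.3 CPM or more have a members' mean of 58.3 CPM or more, while SHH tumors with Mycn of 27.4 to 249.4 CPM lie between 34.7 and 49.6 CPM.

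Against brain, 31 members were higher and 0 lower in grafts, where 24.9% of all tested genes were higher and 30.4% lower. In extracranial tumors 30 were higher and 1 lower, where 26.1% of genes were higher and 26.1% lower. In Myc tumors 34 were higher and 1 lower, where 25.3% of genes were higher and 26.8% lower. In SHH tumors 0 were higher and 1 lower, where 2.44% of genes were higher and 1.94% lower. A gene was called at an adjusted p under 0.05 in edgeR over all 21494 genes. The members' median log2 fold change was 0.91 in grafts, 0.64 in extracranial tumors, 0.86 in Myc tumors and -0.02 in SHH tumors, beside -0.16, 0.05, -0.01 and -0.02 over all tested genes. In SHH tumors the members' median turned to 0.25 with total counts and 0.13 with upper quartile scaling, where the median of all genes moved by 0.24 and 0.13. These 4 comparisons share the 3 brains, and 27 members were higher in each of the first 3, 9 in 1 or 2 of them and 13 in none. These joint counts were not made over all tested genes, so they have no background share beside them. At an unadjusted p under 0.05 in edgeR, 2 members (4.08%) were higher in SHH tumors, against 11.45% of all genes. With DESeq2 and limma voom 1 and 6 were called higher in SHH tumors. For the 0 lower in grafts the unadjusted count was 0, and DESeq2 and limma voom each called 2. Without Healthy brain 1 and SHH tumor 1, the counts were 27 higher in grafts, 23 higher and 0 lower in extracranial tumors, 32 higher and 0 lower in Myc tumors, and 0 higher and 0 lower in SHH tumors. The count in extracranial tumors was lowest, 20 higher, without Healthy brain 3, and was 33 without extracranial tumors 1 and 2. It could not be made within 1 series of the numbers in the file names. These counts from other fits have no share of all tested genes beside them. Among 24 members with no annotated overlap with another gene's exons and no named pseudogene, 16 were higher in grafts, 15 in extracranial tumors, 18 in Myc tumors and 0 in SHH tumors.

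Markers of immune cells were also higher over brain. The 8 macrophage markers were higher in 8 of 8 cases in grafts, extracranial tumors and Myc tumors and in 4 of 8 in SHH tumors. They summed to 6002 to 9494 CPM in grafts, 2440 to 7549 CPM in extracranial tumors, 1482 to 4946 CPM in Myc tumors, 382 to 654 CPM in SHH tumors and 55.2 to 88.3 CPM in brains. The 7 T and NK cell markers were higher in 7 of 7 cases in each of the first 3 groups and 0 of 7 in SHH tumors. They summed to 108 to 203 CPM in grafts, 9.21 to 48.95 CPM in extracranial tumors, 1.75 to 25.7 CPM in Myc tumors, 0.645 to 2.45 CPM in SHH tumors and 0.359 to 0.504 CPM in brains. Of the 8 neuron markers, 7 were lower in grafts, 7 in extracranial tumors, 5 in Myc tumors and 0 in SHH tumors over brain. Of the 6 fibroblast markers, 1 was higher in grafts, 3 in extracranial tumors, 3 in Myc tumors and 0 in SHH tumors over brain. They summed to 2047 to 2446 CPM in grafts, 5075 to 9757 CPM in extracranial tumors and 3908 to 15070 CPM in Myc tumors. The sums were 403 to 567 CPM in SHH tumors and 429 to 3890 CPM in brains. The part of these cells in the members' levels was not tested.

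**Figure D2:**
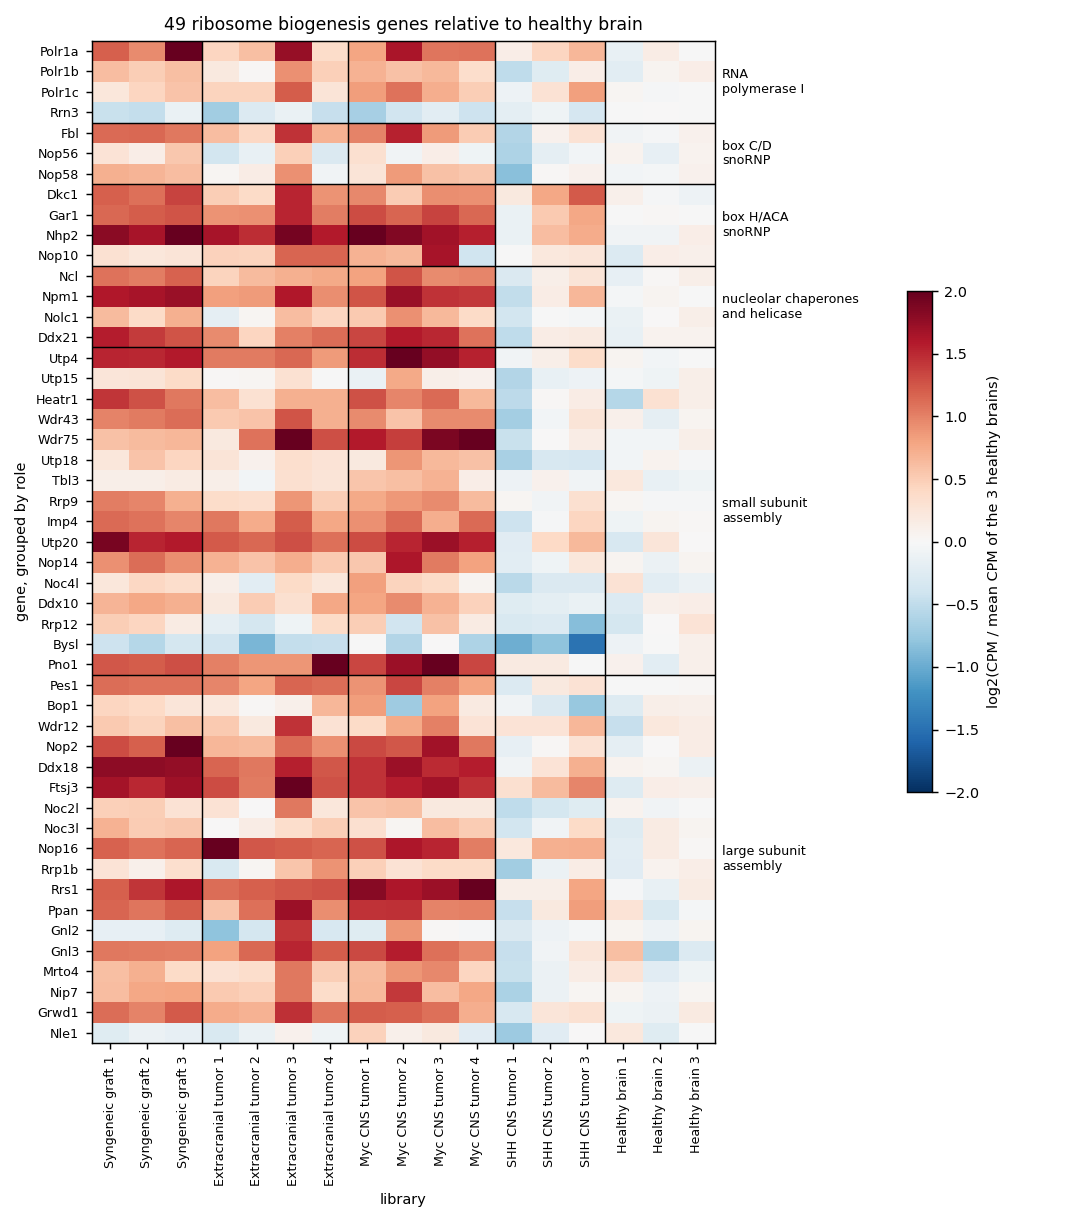
Each of the 49 members (rows, by role) in each of 17 libraries (columns, by group), as log2 of its CPM over the mean of the 3 brains. Colors saturate at 2 and -2. Red fills most of the columns of grafts, extracranial tumors and Myc tumors, the SHH columns are pale with SHH tumor 1 mostly blue, and Rrn3 and Bysl are blue or pale across the tumors.

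Among the 4 RNA polymerase I genes, Polr1a and Polr1b are the catalytic core subunits. Over brain, Polr1a was called higher in grafts, extracranial tumors and Myc tumors, and Polr1b in grafts and Myc tumors. Polr1a (chromosome 6, 71909053 to 71984935, plus strand, GRCm38) had 118, 98.7 and 213 CPM in grafts, 69.7, 78.0, 172 and 66.5 CPM in extracranial tumors and 89.5, 160.2, 108 and 109 CPM in Myc tumors. It had 56.8, 69.7 and 81.5 CPM in SHH tumors and 46.7, 56.9 and 51.1 CPM in brains. No graft, extracranial tumor or Myc tumor overlapped the brains, and log2 fold changes over brain were 1.47 ± 0.38 (adjusted p = 0.00453), 0.91 ± 0.35 (adjusted p = 0.0428) and 1.18 ± 0.36 (adjusted p = 0.013) in that order of groups. Extracranial tumor 3, with 172.3 CPM, stood apart from the other extracranial tumors, and the call in extracranial tumors was lost in 8 of the 17 fits that each left out 1 library. Polr1b had 51.5, 47.0 and 51.0 CPM in grafts, 38.3, 34.0, 63.5 and 46.7 CPM in extracranial tumors and 54.2, 50.4, 52.7 and 43.0 CPM in Myc tumors. It had 23.6, 28.4 and 36.7 CPM in SHH tumors and 29.1, 34.9 and 36.6 CPM in brains. Its log2 fold change was 0.57 ± 0.23 (adjusted p = 0.0476) in grafts and 0.58 ± 0.22 (adjusted p = 0.0378) in Myc tumors over brain, and these calls were lost in 13 and 9 of the 17 fits that each left out 1 library. Extracranial tumors overlapped the brains, with a log2 fold change of 0.44 ± 0.22 (adjusted p = 0.0997). Polr1c, a subunit shared with RNA polymerase III, was higher in extracranial tumors (log2 fold change 0.64, adjusted p = 0.0483) and Myc tumors (log2 fold change 0.80, adjusted p = 0.0181), and had a log2 fold change of 0.42 in grafts (adjusted p = 0.203). Its call in extracranial tumors was lost in 12 of the 17 fits without 1 library and that in Myc tumors in 2.

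Rrn3, which brings RNA polymerase I to the ribosomal DNA promoter, was 1 of the 2 members that fell in a group. It had 62.0, 60.4 and 76.6 CPM in grafts, 52.0, 69.9, 76.5 and 61.2 CPM in extracranial tumors and 53.2, 64.5, 73.0 and 63.6 CPM in Myc tumors. It had 74.0, 79.5 and 67.0 CPM in SHH tumors and 84.2, 85.1 and 83.7 CPM in brains. Each of the 14 tumors lay below each brain, and the 3 brains differed by under 2 CPM. The log2 fold change passed the test in Myc tumors, -0.41 ± 0.16 (adjusted p = 0.0459), and was -0.35 ± 0.17 (adjusted p = 0.102) in grafts, -0.38 ± 0.16 (adjusted p = 0.0621) in extracranial tumors and -0.20 ± 0.17 (adjusted p = 0.536) in SHH tumors. Over the 29 alternatives in Myc tumors its adjusted p ran from 0.00543 to 0.331, and 11 of the 17 fits without 1 library lost the call. Its promoter is the one printed above with more than 1 E-box.

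The box H/ACA particle carries out pseudouridylation and shares its proteins with telomerase. In it 3 of 4 members were higher in grafts, in extracranial tumors and in Myc tumors, and 0 of 4 in SHH tumors. The shares of all tested genes were 24.9%, 26.1%, 25.3% and 2.44% in that order. Nhp2 had 64.1, 57.6 and 73.1 CPM in grafts, 57.3, 50.9, 69.3 and 55.4 CPM in extracranial tumors and 75.2, 66.1, 58.5 and 54.1 CPM in Myc tumors. It had 16.7, 28.0 and 30.7 CPM in SHH tumors and 17.5, 17.4 and 20.1 CPM in brains. No library with high Myc overlapped the others, and log2 fold changes over brain were 1.82 ± 0.23 (adjusted p = 2.49e-05), 1.67 ± 0.22 (adjusted p = 3.79e-05) and 1.79 ± 0.22 (adjusted p = 2.55e-05) in grafts, extracranial tumors and Myc tumors, and 1.34 ± 0.21 (adjusted p = 0.000384) in Myc over SHH tumors. SHH tumor 1 lay below the brains in Nhp2 while SHH tumors 2 and 3 lay above them, with a log2 fold change of 0.45 ± 0.22 (adjusted p = 0.246). Gar1 had log2 fold changes of 1.21 ± 0.22 (adjusted p = 0.000468) in grafts, 1.11 ± 0.21 (adjusted p = 0.000663) in extracranial tumors and 1.24 ± 0.21 (adjusted p = 0.000311) in Myc tumors.

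Dkc1, dyskerin, the pseudouridine synthase, had 79.8, 74.3 and 88.7 CPM in grafts, 48.8, 45.1, 100.1 and 64.3 CPM in extracranial tumors and 67.3, 49.3, 66.1 and 65.3 CPM in Myc tumors. It had 39.5, 59.0 and 81.5 CPM in SHH tumors and 37.3, 34.3 and 32.4 CPM in brains. Each of the 14 tumors was above each brain, and SHH tumor 3 was above each Myc tumor. The log2 fold change over brain was 1.22 ± 0.30 (adjusted p = 0.00324) in grafts, 0.90 ± 0.28 (adjusted p = 0.0151) in extracranial tumors and 0.84 ± 0.28 (adjusted p = 0.0213) in Myc tumors, which passed the test, and 0.79 ± 0.29 (adjusted p = 0.133) in SHH tumors, which did not. Myc and SHH tumors differed by 0.05 ± 0.27 (adjusted p = 0.905), which did not pass. Nop10, the smallest protein of the particle, varied within Myc tumors (43.6, 42.5, 84.8 and 20.4 CPM, against 22.4, 29.4 and 29.0 CPM in brains), with a log2 fold change of 0.83 ± 0.36 (adjusted p = 0.0644).

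In the box C/D particle, which guides ribose methylation, Fbl, the methyltransferase fibrillarin, was higher. Fbl had 139, 139.8 and 131 CPM in grafts, 96.7, 83.9, 171 and 102 CPM in extracranial tumors and 126, 184, 113 and 89.6 CPM in Myc tumors. It had 42.1, 67.0 and 77.4 CPM in SHH tumors and 60.0, 62.3 and 66.8 CPM in brains. No library of the first 3 groups overlapped the brains, with log2 fold changes of 1.12 ± 0.30 (adjusted p = 0.00623), 0.85 ± 0.28 (adjusted p = 0.0216) and 1.02 ± 0.28 (adjusted p = 0.00832). Nop56, a core protein of the same particle, had 172, 156 and 208 CPM in grafts, 111, 129, 199 and 117 CPM in extracranial tumors and 178, 136, 157 and 134 CPM in Myc tumors. It had 93.3, 126 and 137 CPM in SHH tumors and 150.3, 128 and 149.7 CPM in brains. Here extracranial and Myc tumors overlapped the brains, and the log2 fold change was 0.33 ± 0.23 (adjusted p = 0.234) in grafts, -0.04 ± 0.21 (adjusted p = 0.898) in extracranial tumors and 0.08 ± 0.21 (adjusted p = 0.757) in Myc tumors. Nop58, its partner, was higher in grafts (log2 fold change 0.67, adjusted p = 0.0479) and had a log2 fold change of 0.32 in extracranial and 0.57 in Myc tumors (adjusted p = 0.314 and 0.0745). The call of Nop58 in grafts was lost in 14 of the 17 fits without 1 library. The exons of Nop56, Nop58, Ncl, Ppan and Gnl3 overlap other annotated genes on the same strand, among them Snord57 in Nop56, Snora75 in Ncl and Snord19 in Gnl3, so their counts are uncertain to that extent.

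The nucleolar chaperones and the helicase Ddx21 were higher in grafts and Myc tumors in 4 of 4 cases and in extracranial tumors in 3 of 4. Of all tested genes, 24.9% were higher in grafts, 25.3% in Myc tumors and 26.1% in extracranial tumors. Npm1, nucleophosmin, a histone and ribosome chaperone of the granular nucleolus (chromosome 11, 33152287 to 33163206, minus strand), had 1169, 1197 and 1266 CPM in grafts, 676, 691, 1167 and 729 CPM in extracranial tumors and 913, 1266, 1042 and 1019 CPM in Myc tumors. It had 274, 425 and 608 CPM in SHH tumors and 373, 396 and 381 CPM in brains. Each graft, extracranial tumor and Myc tumor was above each SHH tumor and each brain. Log2 fold changes were 1.66 ± 0.28 (adjusted p = 0.000227) in grafts, 1.09 ± 0.26 (adjusted p = 0.00311) in extracranial tumors and 1.47 ± 0.26 (adjusted p = 0.000451) in Myc tumors over brain, and 1.28 ± 0.26 (adjusted p = 0.0018) in Myc over SHH tumors. Extracranial tumor 3 carried 1167 CPM, against 676 to 729 CPM in the other extracranial tumors. Per length (TPM, counts divided by merged exon length and scaled to a common total), Npm1 was the most abundant member, at 1503 ± 73.3 TPM in grafts, 974 ± 333 TPM in extracranial tumors, 1289 ± 174 TPM in Myc tumors, 743 ± 323 TPM in SHH tumors and 569.7 ± 43.8 TPM in brains (SD), and it made up 29.2%, 23.2%, 25.6%, 20.5% and 19.1% of the members' summed TPM in those groups.

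Ncl, nucleolin, which binds nascent ribosomal RNA, had 992, 954 and 1061 CPM in grafts, 636, 724, 767 and 788 CPM in extracranial tumors and 816, 1117, 897 and 926 CPM in Myc tumors. It had 382, 506 and 560.2 CPM in SHH tumors and 420.1, 475 and 510.2 CPM in brains. The groups with high Myc did not overlap the SHH tumors or the brains, with log2 fold changes of 1.10 ± 0.18 (adjusted p = 0.000237) in grafts, 0.64 ± 0.17 (adjusted p = 0.00692) in extracranial tumors, 1.004 ± 0.17 (adjusted p = 0.000358) in Myc tumors and 0.04 ± 0.18 (adjusted p = 0.916) in SHH tumors over brain. Each extracranial tumor was below each Myc tumor, with a log2 fold change of -0.37 ± 0.16 (adjusted p = 0.28). Ddx21, which links RNA polymerase I transcription to processing, had 240.4, 213 and 193 CPM in grafts, 156, 109, 162 and 175 CPM in extracranial tumors and 204, 242, 229.5 and 172 CPM in Myc tumors. It had 56.7, 89.6 and 91.8 CPM in SHH tumors and 72.9, 84.8 and 84.9 CPM in brains. Its log2 fold change was 1.41 ± 0.22 (adjusted p = 0.000148) in grafts, 0.90 ± 0.21 (adjusted p = 0.00269) in extracranial tumors and 1.39 ± 0.21 (adjusted p = 0.000138) in Myc tumors over brain, and 1.42 ± 0.21 (adjusted p = 0.000257) in Myc over SHH tumors. Nolc1, a snoRNP chaperone, had 138, 116 and 146 CPM in grafts, 78.0, 91.0, 136 and 119 CPM in extracranial tumors and 128, 168, 139.9 and 115 CPM in Myc tumors. It had 68.9, 87.9 and 86.3 CPM in SHH tumors and 81.2, 89.1 and 96.0 CPM in brains. It rose in grafts (log2 fold change 0.58, adjusted p = 0.0305) and Myc tumors (log2 fold change 0.63, adjusted p = 0.0171), while extracranial tumors overlapped the brains (log2 fold change 0.26, adjusted p = 0.292).

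**Figure D3:**
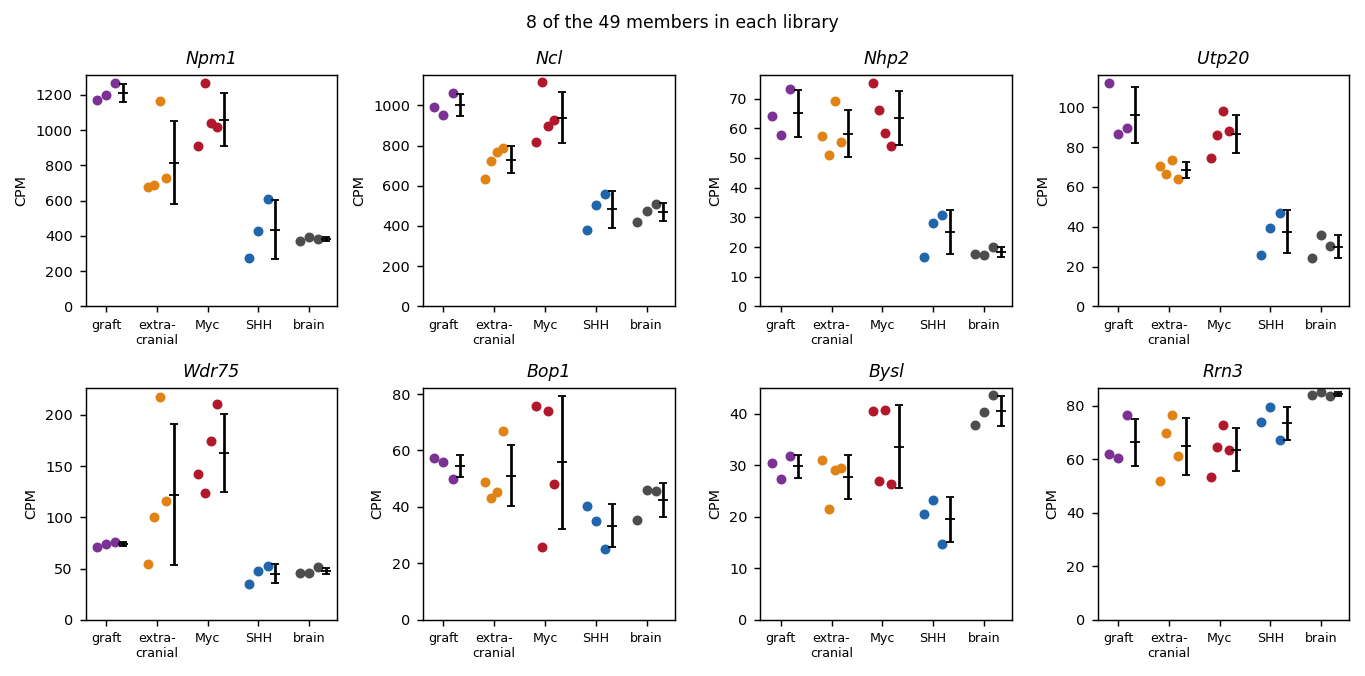
CPM of 8 members in each of 17 libraries by group. Points are libraries and black bars are mean ± SD. Npm1, Ncl, Nhp2 and Utp20 separate grafts, extracranial tumors and Myc tumors from SHH tumors and brains, Wdr75 is at 71.5 to 75.6 CPM in grafts, against 123 to 211 CPM in Myc tumors, Bop1 overlaps among groups, and each Rrn3 value of a tumor lies under the brains.

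Of the 16 small subunit factors, 9 were higher in grafts, 10 in extracranial tumors, 12 in Myc tumors and 0 in SHH tumors. The shares of all tested genes were 24.9%, 26.1%, 25.3% and 2.44% in that order. The factors' medians were 0.81, 0.56, 0.83 and -0.09 on the log2 scale. Utp4, Utp15, Heatr1, Wdr43 and Wdr75 belong to the complex that joins the ribosomal RNA precursor as it is transcribed. Utp4 had 76.2, 75.1 and 79.3 CPM in grafts, 54.2, 54.2, 59.0 and 47.7 CPM in extracranial tumors and 73.9, 141, 89.2 and 76.9 CPM in Myc tumors. It had 25.4, 28.9 and 34.3 CPM in SHH tumors and 27.6, 25.6 and 26.2 CPM in brains. Its values separated the groups with high Myc from the others without overlap, with a log2 fold change of 1.54 ± 0.22 (adjusted p = 7.65e-05) in grafts, 1.02 ± 0.21 (adjusted p = 0.0011) in extracranial tumors and 1.84 ± 0.21 (adjusted p = 1.88e-05) in Myc tumors over brain. Each extracranial tumor also lay below each Myc tumor, with a log2 fold change of -0.82 ± 0.19 (adjusted p = 0.106). Heatr1 had 81.5, 72.7 and 63.0 CPM in grafts, 46.3, 37.2, 49.4 and 49.3 CPM in extracranial tumors and 73.0, 59.2, 66.0 and 47.1 CPM in Myc tumors. It had 20.9, 30.6 and 33.3 CPM in SHH tumors and 20.3, 37.5 and 32.7 CPM in brains. Its log2 fold change was 1.26 ± 0.25 (adjusted p = 0.000879) in grafts, 0.59 ± 0.24 (adjusted p = 0.0471) in extracranial tumors and 1.02 ± 0.24 (adjusted p = 0.00285) in Myc tumors over brain. In extracranial tumors it overlapped the brains by 1 library, and 12 of the 17 fits without 1 library lost that call. Utp15, of the same complex, was called in none of these groups, with log2 fold changes of 0.30 in grafts, 0.10 in extracranial tumors and 0.25 in Myc tumors (adjusted p = 0.255, 0.714 and 0.313).

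Wdr75 had 71.5, 73.8 and 75.6 CPM in grafts, 54.7, 101, 217 and 116 CPM in extracranial tumors and 143, 123, 175 and 211 CPM in Myc tumors. It had 35.0, 47.6 and 52.5 CPM in SHH tumors and 45.5, 45.6 and 51.4 CPM in brains. The 3 grafts were close together and below each Myc tumor, with a log2 fold change of -1.15 ± 0.35 (adjusted p = 0.0616), and over 29 alternatives this adjusted p ran from 0.00242 to 0.190, with 7 under 0.05. Over brain the log2 fold change was 0.63 ± 0.36 (adjusted p = 0.147) in grafts, 1.36 ± 0.35 (adjusted p = 0.00492) in extracranial tumors and 1.78 ± 0.35 (adjusted p = 0.000978) in Myc tumors. Wdr43, its neighbour in the complex, was higher over brain in each of the 3 groups, with log2 fold changes of 1.05, 0.80 and 0.86 (adjusted p = 0.00207, 0.00865 and 0.00584).

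Utp20, a large scaffold of early pre-ribosomes, had 112, 86.5 and 89.7 CPM in grafts, 70.2, 66.5, 73.3 and 64.1 CPM in extracranial tumors and 74.4, 86.1, 97.8 and 87.9 CPM in Myc tumors. It had 25.7, 39.5 and 47.0 CPM in SHH tumors and 24.1, 35.6 and 30.3 CPM in brains. Groups with high Myc did not overlap SHH tumors or brains, with a log2 fold change of 1.68 ± 0.22 (adjusted p = 3.76e-05) in grafts, 1.19 ± 0.21 (adjusted p = 0.000345) in extracranial tumors, 1.53 ± 0.21 (adjusted p = 6.09e-05) in Myc tumors and 0.32 ± 0.21 (adjusted p = 0.414) in SHH tumors over brain. Pno1, which binds the small subunit near the end of its assembly, had 49.03, 47.7 and 50.7 CPM in grafts, 41.4, 37.9, 38.1 and 92.7 CPM in extracranial tumors and 52.0, 67.5, 158 and 52.3 CPM in Myc tumors. It had 23.4, 23.4 and 20.5 CPM in SHH tumors and 22.0, 17.9 and 22.1 CPM in brains. Myc tumor 3 and extracranial tumor 4 stood apart from the rest of their groups. Log2 fold changes were 1.25 ± 0.42 (adjusted p = 0.0202) in grafts, 1.35 ± 0.40 (adjusted p = 0.0118) in extracranial tumors and 1.996 ± 0.41 (adjusted p = 0.00122) in Myc tumors. Imp4, Rrp9, Nop14 and Ddx10 were also higher in the 3 groups, by 0.47 (Ddx10 in extracranial tumors) to 1.07 (Imp4 in grafts) on the log2 scale, and the call of Ddx10 in extracranial tumors was lost in 11 of the 17 fits without 1 library. Utp18 and Tbl3, which share a complex, were higher in Myc tumors (log2 fold change 0.60 and 0.51, adjusted p = 0.0109 and 0.0206) and had a log2 fold change of 0.42 and 0.14 in grafts (adjusted p = 0.0683 and 0.533). Noc4l and Rrp12 were called in none of the 3 groups over brain.

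Bysl, bystin, which acts late on the small subunit, was the other member that fell in any group. It had 30.4, 27.4 and 31.8 CPM in grafts, 31.0, 21.5, 29.1 and 29.4 CPM in extracranial tumors and 40.5, 26.9, 40.7 and 26.3 CPM in Myc tumors. It had 20.6, 23.2 and 14.7 CPM in SHH tumors and 37.8, 40.3 and 43.6 CPM in brains. Each graft, extracranial tumor and SHH tumor lay below each brain, while Myc tumors 1 and 3 lay within the range of the brains and Myc tumors 2 and 4 below it. The log2 fold change over brain was -1.06 ± 0.24 (adjusted p = 0.0265) in SHH tumors and -0.55 ± 0.22 (adjusted p = 0.0489) in extracranial tumors, which passed the test, and -0.44 ± 0.24 (adjusted p = 0.124) in grafts and -0.27 ± 0.22 (adjusted p = 0.316) in Myc tumors. The calls were lost in 4 and 10 of the 17 fits that each left out 1 library, and over all alternatives the adjusted p ran from 0.000206 to 0.119 in SHH tumors and from 0.00616 to 0.165 in extracranial tumors. Bysl was higher in Myc than in SHH tumors, with a log2 fold change of 0.79 ± 0.23 (adjusted p = 0.0131). Its exons overlap those of Ccnd3 on the other strand, and the strand setting of the counting is not given in the sources used here.

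Of the 18 large subunit factors, 11 were higher in grafts, 11 in extracranial tumors, 11 in Myc tumors and 0 in SHH tumors. The shares of all tested genes were 24.9%, 26.1%, 25.3% and 2.44% in that order. Pes1, Bop1 and Wdr12 form the PeBoW complex, needed to cut the large subunit RNA out of its precursor, and 1 of the 3 was called. Pes1 had 122, 120.3 and 120 CPM in grafts, 111, 97.9, 127 and 123 CPM in extracranial tumors and 105, 143, 113 and 97.2 CPM in Myc tumors. It had 46.8, 64.6 and 69.1 CPM in SHH tumors and 56.0, 55.8 and 57.5 CPM in brains. Its libraries with high Myc did not overlap the others, with a log2 fold change of 1.10 ± 0.18 (adjusted p = 0.000211) in grafts, 1.02 ± 0.17 (adjusted p = 0.000265) in extracranial tumors and 1.02 ± 0.17 (adjusted p = 0.000277) in Myc tumors over brain. Bop1 had 57.3, 55.8 and 49.9 CPM in grafts, 48.9, 43.0, 45.3 and 67.1 CPM in extracranial tumors and 75.6, 25.9, 73.9 and 48.0 CPM in Myc tumors. It had 40.2, 34.9 and 25.1 CPM in SHH tumors and 35.4, 46.1 and 45.7 CPM in brains. Myc tumor 2 was below each brain while Myc tumors 1, 3 and 4 were above, and log2 fold changes were 0.36 ± 0.33 (adjusted p = 0.366), 0.27 ± 0.31 (adjusted p = 0.483) and 0.40 ± 0.31 (adjusted p = 0.294) in grafts, extracranial tumors and Myc tumors. Wdr12 had 49.7, 47.0 and 52.4 CPM in grafts, 49.8, 39.7, 94.2 and 42.1 CPM in extracranial tumors and 45.1, 58.1, 69.2 and 41.9 CPM in Myc tumors. It had 41.7, 41.6 and 54.4 CPM in SHH tumors and 25.2, 39.9 and 38.4 CPM in brains. Each graft, Myc tumor and SHH tumor was above each brain, and extracranial tumors overlapped them. The log2 fold changes in grafts and Myc tumors were 0.53 ± 0.31 (adjusted p = 0.164) and 0.63 ± 0.29 (adjusted p = 0.0839), which did not pass the test, beside 0.71 ± 0.30 (adjusted p = 0.0567) in extracranial and 0.41 ± 0.31 (adjusted p = 0.468) in SHH tumors. The differences among the 3 genes were not tested.

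Nop2, an RNA methyltransferase of the large subunit and a long-used marker of dividing cells, had 90.6, 83.7 and 152 CPM in grafts, 57.8, 56.9, 80.0 and 69.1 CPM in extracranial tumors and 90.8, 86.2, 117 and 76.2 CPM in Myc tumors. It had 32.5, 37.1 and 44.6 CPM in SHH tumors and 32.1, 36.8 and 40.6 CPM in brains. Grafts, extracranial tumors and Myc tumors were each above SHH tumors and brains, with a log2 fold change of 1.57 ± 0.25 (adjusted p = 0.000147), 0.85 ± 0.23 (adjusted p = 0.00689) and 1.34 ± 0.23 (adjusted p = 0.00037) over brain. Ddx18, a helicase, had 84.9, 84.7 and 83.5 CPM in grafts, 55.5, 51.0, 72.0 and 58.0 CPM in extracranial tumors and 67.0, 80.6, 69.3 and 73.2 CPM in Myc tumors. It had 23.4, 29.9 and 40.4 CPM in SHH tumors and 25.8, 25.4 and 22.7 CPM in brains. The 3 grafts agreed within 2 CPM and lay above each Myc tumor, with a log2 fold change of 0.22 ± 0.18 (adjusted p = 0.483). Over brain Ddx18 had a log2 fold change of 1.77 ± 0.20 (adjusted p = 1.09e-05) in grafts, 1.26 ± 0.19 (adjusted p = 9.68e-05) in extracranial tumors, 1.56 ± 0.19 (adjusted p = 2.42e-05) in Myc tumors and 0.34 ± 0.19 (adjusted p = 0.318) in SHH tumors.

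Rrs1, an early large subunit factor in yeast, had 44.2, 52.0 and 58.9 CPM in grafts, 41.8, 44.1, 45.5 and 46.4 CPM in extracranial tumors and 68.3, 58.8, 63.1 and 80.2 CPM in Myc tumors. It had 20.8, 20.8 and 33.2 CPM in SHH tumors and 18.9, 17.4 and 21.5 CPM in brains. It had the smallest adjusted p of the members in Myc tumors over brain, 1.81 ± 0.20 (adjusted p = 1.35e-05), beside 1.43 ± 0.21 (adjusted p = 8.38e-05) in grafts and 1.21 ± 0.20 (adjusted p = 0.000214) in extracranial tumors. Each extracranial tumor lay below each Myc tumor, with a log2 fold change of -0.61 ± 0.18 (adjusted p = 0.147). Ftsj3, the counterpart of the yeast methyltransferase Spb1, had a log2 fold change of 1.62 in grafts, 1.45 in extracranial tumors and 1.54 in Myc tumors (adjusted p = 8.41e-05, 0.000146 and 0.000102). Gnl3, nucleostemin, a nucleolar GTPase of stem and tumor cells, had 119.9, 118 and 117 CPM in grafts, 101, 127, 165 and 134 CPM in extracranial tumors and 144, 172, 124 and 112 CPM in Myc tumors. It had 42.0, 55.1 and 68.5 CPM in SHH tumors and 87.0, 38.1 and 47.6 CPM in brains. Healthy brain 1, the brain with pituitary and muscle transcripts, had the highest level of its group, and the log2 fold changes were 1.04 ± 0.29 (adjusted p = 0.00761), 1.20 ± 0.28 (adjusted p = 0.00258) and 1.26 ± 0.28 (adjusted p = 0.00191) in grafts, extracranial tumors and Myc tumors.

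Nop16, Ppan, Grwd1 and Nip7 were also higher in each of the 3 groups, by 0.63 (Nip7 in extracranial tumors) to 1.68 (Nop16 in extracranial tumors) on the log2 scale. Mrto4 rose in extracranial tumors (log2 fold change 0.58, adjusted p = 0.0434) and Myc tumors (log2 fold change 0.74, adjusted p = 0.0138), and has 2 named pseudogenes that could share its reads. Noc3l rose in grafts (log2 fold change 0.58, adjusted p = 0.0394). Leaving out 1 library lost the call of Noc3l in 12 of 17 fits, that of Mrto4 in extracranial tumors in 9 and that of Nip7 in extracranial tumors in 6. Gnl2, Nle1, Noc2l and Rrp1b were called in none of these comparisons. Gnl2, a GTPase of late nucleolar particles, had 86.3, 85.8 and 80.8 CPM in grafts, 55.2, 75.2, 259 and 77.3 CPM in extracranial tumors and 82.0, 177, 98.0 and 94.6 CPM in Myc tumors. It had 79.1, 90.3 and 94.0 CPM in SHH tumors and 99.7, 89.9 and 99.8 CPM in brains. Extracranial tumor 3 and Myc tumor 2 stood far above their groups, while each graft, the other 3 extracranial tumors and Myc tumor 1 lay below each brain. Its log2 fold change was -0.19 ± 0.45 (adjusted p = 0.733) in grafts, 0.28 ± 0.43 (adjusted p = 0.607) in extracranial tumors and 0.23 ± 0.43 (adjusted p = 0.673) in Myc tumors. Nle1 had a log2 fold change of -0.17, -0.11 and 0.15 in grafts, extracranial tumors and Myc tumors (adjusted p = 0.556, 0.715 and 0.583), and it holds an E-box just after its start.

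**Figure D4:**
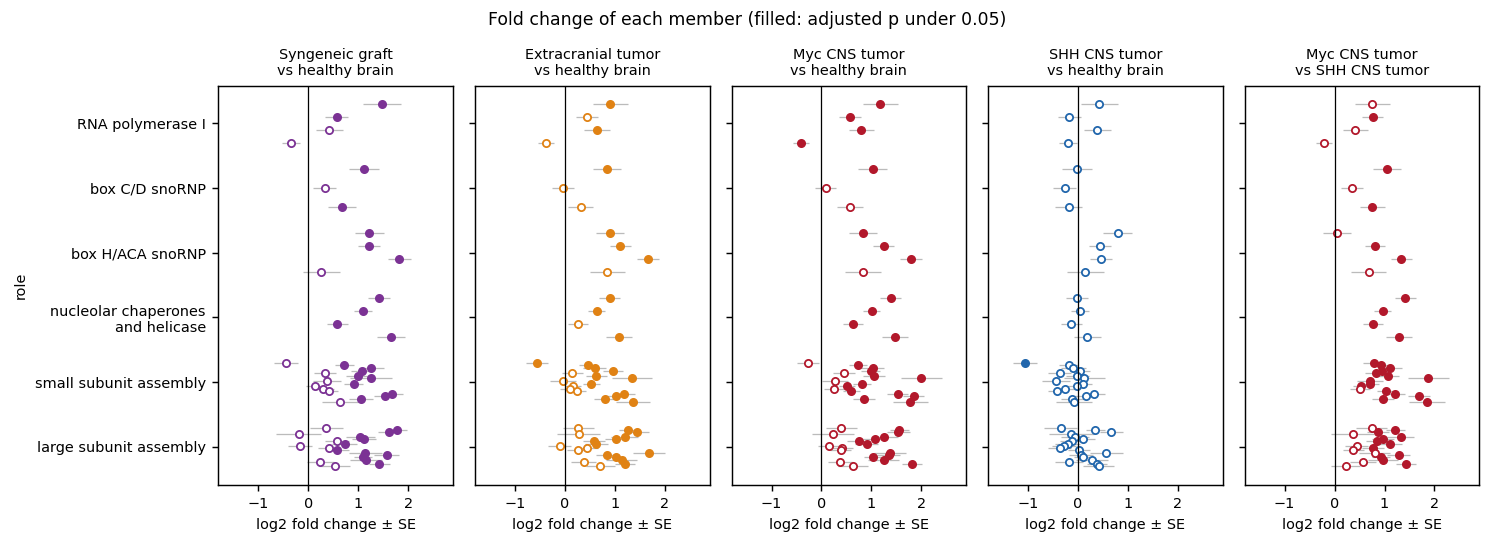
Log2 fold change ± SE of each member, by role, in 5 comparisons. Filled points passed an adjusted p under 0.05. Most points in the panels of grafts, extracranial tumors and Myc tumors over brain, and of Myc over SHH tumors, lie right of 0, and the SHH panel is spread around 0 with Bysl as its filled point.

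Members were also counted by the E-box. In Myc tumors over brain 9 of the 11 with CACGTG were higher and 1, Rrn3, lower, with a median log2 fold change of 1.02, and 21 of the 31 without it were higher, with a median of 0.83. In grafts 8 of 11 with it and 20 of 31 without it were higher, and in extracranial tumors 8 of 11 and 19 of 31. In SHH tumors 0 of 11 and 0 of 31 were higher. Over all tested genes, 25.3% were higher and 26.8% lower in Myc tumors. In grafts 24.9% were higher, in extracranial tumors 26.1% and in SHH tumors 2.44%. The share called among all genes with CACGTG was not counted. The difference between members with and without CACGTG was not tested.

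Directly between the CNS tumors, 35 of 49 members were higher in Myc than in SHH tumors and 0 lower, where 19% of all tested genes were higher and 21.9% lower. For the 0 lower, the count at an unadjusted p under 0.05 was 0, and DESeq2 and limma voom called 0. The members' median log2 fold change was 0.86, beside 0.00 over all genes. With total counts in place of TMM scaling, 20 were higher, and the median over all genes moved by -0.27. Without Healthy brain 1 and SHH tumor 1, 28 were higher. The counts of these other fits have no share of all tested genes beside them. By role, 15 of 16 small subunit factors, 11 of 18 large subunit factors, 4 of 4 chaperones and helicase, 2 of 4 box H/ACA proteins, 2 of 3 box C/D proteins and 1 of 4 RNA polymerase I genes were higher. The smallest adjusted p-values belonged to Utp4 (log2 fold change 1.69 ± 0.21, adjusted p = 9.11e-05), Rrs1 (log2 fold change 1.44 ± 0.20, adjusted p = 0.00016), Ddx21 and Ddx18 (log2 fold change 1.22 ± 0.19, adjusted p = 0.000282). Noc4l (log2 fold change 0.82 ± 0.21, adjusted p = 0.00772), Noc2l (log2 fold change 0.77 ± 0.22, adjusted p = 0.0126), Rrp12 (log2 fold change 0.71 ± 0.26, adjusted p = 0.0434) and Bysl were higher in Myc than in SHH tumors and were not called higher in Myc tumors than in brain. Nop58 was likewise called higher in Myc over SHH tumors and not in Myc tumors over brain. The call of Rrp12 was lost in 12 of the 17 fits without 1 library, and that of Nop58 in 5. Macrophage markers (8 of 8 higher in Myc tumors) summed to 1482 to 4946 CPM in Myc tumors, against 382 to 654 CPM in SHH tumors. Fibroblast markers (5 of 6 higher) summed to 3908 to 15070 CPM in Myc tumors, against 403 to 567 CPM in SHH tumors. Oligodendrocyte markers (6 of 6 lower) summed to 55.8 to 190 CPM in Myc tumors, against 58.9 to 9721 CPM in SHH tumors. Markers of cycling cells (4 of 12 higher) summed to 885 to 1094 CPM in Myc tumors, against 298, 986 and 1017 CPM in SHH tumors, and their mean log2(CPM + 1) was 6.04 to 6.30 in Myc tumors, against 4.17, 5.76 and 5.78 in SHH tumors. The part of these cells in the members' levels was not tested.

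Among tumors with high Myc, no member passed the test in edgeR. In extracranial over Myc tumors 0 members were higher and 0 lower, where 0% of genes were higher and 0.0186% lower. At an unadjusted p under 0.05, 0 were higher and 8 lower, DESeq2 called 0 higher and 2 lower, and limma voom called 0 in both directions. The members' median was -0.18, beside 0.04 over all genes, and 42 of 49 log2 fold changes were negative. In grafts over Myc tumors 0 members were higher and 0 lower, where 3.12% of genes were higher and 2.88% lower. At an unadjusted p under 0.05, 0 were higher and 2 lower, and DESeq2 and limma voom each called 0 higher and 1 lower. The median was -0.01, beside -0.11 over all genes. The ranges of the following marker lists did not overlap between grafts and Myc tumors. In grafts, macrophage markers (3 of 8 called higher) summed to 6002 to 9494 CPM, against 1482 to 4946 CPM in Myc tumors. T and NK cell markers (1 of 7 higher) summed to 108 to 203 CPM in grafts, against 1.75 to 25.7 CPM in Myc tumors, and cycling markers (1 of 12 higher) to 1706 to 2118 CPM, against 885 to 1094 CPM. Fibroblast markers (0 of 6 called) summed to 2047 to 2446 CPM in grafts, against 3908 to 15070 CPM in Myc tumors, and oligodendrocyte markers (0 of 6 called) to 21.6 to 35.8 CPM, against 55.8 to 190 CPM. Endothelial markers (1 of 5 higher) summed to 292.1 to 388.1 CPM in grafts, against 137.3 to 288.6 CPM in Myc tumors. Skeletal muscle markers (0 of 6 called) summed to 1.68 to 2.44 CPM in grafts, against 5.2 to 47.7 CPM in Myc tumors. The part of these cells in the members' levels was not tested.

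Single tumors carried much of the spread. The coefficient of variation of a member had a median of 6.43% in grafts, 22.0% in extracranial tumors, 16.9% in Myc tumors, 21.8% in SHH tumors and 9.69% in brains. Extracranial tumor 3, with the highest Myc of the 17 libraries (200.6 CPM), was the highest of its group in 38 of the 49 members, and it also had the highest sum of cycling markers in its group (1877, against 853 to 1204 CPM). SHH tumor 3, with the highest Mycn (249.4 CPM), was the highest of its group in 41 of 49 members. SHH tumor 1, with the lowest Mycn of its group (27.4 CPM) and the oligodendrocyte transcripts, was the lowest in 41 of 49, and its cycling markers summed to 298 CPM, against 986 and 1017 CPM in SHH tumors 2 and 3. Graft 3, with the lowest Myc of its group (104 CPM), was the highest in 25 members and the lowest in 14. Myc tumor 3, with the lowest Myc of its group (97.3 CPM), was the highest in 15 and the lowest in 3. Myc tumor 2, with the highest (165 CPM), was the highest in 21 and the lowest in 8, and Myc tumor 4 was the lowest in 24. These counts of highest and lowest libraries were made for the members alone, with no share over all tested genes. The parts of Myc, Mycn, cycling cells and other tissue in these orders were not tested.

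The relation to Myc and Mycn within groups was tested with a slope on the log2 level of each, with a mean per group in the fit. On Myc, 0 members had a called positive slope and 0 a negative one, where 0.00465% of genes were positive and 0% negative. On Mycn the counts were 0 and 0, where 0.00465% of genes were positive and 0% negative, and on the sum of both they were 0 and 0, where 0% were positive and 0% negative. At an unadjusted p under 0.05, 1, 14 and 19 of the 49 members were positive on Myc, Mycn and the sum (2.04%, 28.6% and 38.8%), against 1.54%, 6.41% and 5.56% of all genes, and 0 members were negative. The members' median slopes were 0.08, 0.16 and 0.21 (log2 per log2), beside -0.02, 0.00 and -0.01 over all genes. In edgeR, the smallest adjusted p on Mycn belonged to Npm1 (0.35 ± 0.09, adjusted p = 0.177), Utp20 (0.28 ± 0.08, adjusted p = 0.178) and Imp4 (0.26 ± 0.07, adjusted p = 0.193). On Myc, the member counted was Gnl2 (0.72 ± 0.29, adjusted p = 1). DESeq2 called 0, 4 and 8 members positive on Myc, Mycn and the sum and 0 negative, and limma voom called 0 in each case. The shares of all genes called by these 2 methods are not given here, so these counts have no background beside them. Members share libraries, so their slopes are not independent of each other, and the range of Mycn was widest in the 3 SHH tumors. Its low end there was SHH tumor 1 (27.4 CPM), the library with oligodendrocyte transcripts. In each graft, extracranial tumor and Myc tumor, Mycn was at most 2.62 CPM, near the 1 CPM added before the log2.

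The rest of the pathway was read from lists of other genes. Ribosomal protein genes, whose products the assembly factors place in the subunits, were higher in 27 of 32 small subunit and 37 of 45 large subunit genes in grafts, 31 of 32 and 42 of 45 in extracranial tumors, and 31 of 32 and 42 of 45 in Myc tumors, with 0 lower. In SHH tumors 0 of 32 and 0 of 45 were higher. These counts compare with the shares of all genes given above, and their median log2 fold changes were 0.95 and 0.91 in grafts, 1.36 and 1.31 in extracranial tumors, 1.36 and 1.27 in Myc tumors, and 0.29 and 0.27 in SHH tumors. Rpl19 had a log2 fold change of 1.25 ± 0.25 (adjusted p = 0.000897) in grafts, 1.57 ± 0.24 (adjusted p = 0.00014) in extracranial tumors and 1.59 ± 0.24 (adjusted p = 0.000137) in Myc tumors, and Fau had a log2 fold change of 1.24 ± 0.27 (adjusted p = 0.00152) in grafts and 1.44 ± 0.26 (adjusted p = 0.000454) in Myc tumors. Ribosomal protein genes have many processed copies in the genome, so their counts are uncertain. Of 35 other small subunit factors, 19 were higher and 2 lower in grafts, 16 and 2 in extracranial tumors, 21 and 2 in Myc tumors, and 0 and 0 in SHH tumors. Wdr36 had a log2 fold change of 1.55 ± 0.24 (adjusted p = 0.000142) in grafts and 1.63 ± 0.23 (adjusted p = 8.38e-05) in Myc tumors.

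Of 39 other large subunit factors, 20 were higher and 2 lower in grafts, 17 and 5 in extracranial tumors, 21 and 2 in Myc tumors, and 1 and 1 in SHH tumors. Ddx55, a helicase, was lower in extracranial tumors (log2 fold change -1.42 ± 0.16, adjusted p = 1.36e-05) and Myc tumors (log2 fold change -1.35 ± 0.16, adjusted p = 2.23e-05), and Sbds, which readies the large subunit for translation, was higher in Myc tumors (log2 fold change 1.62 ± 0.20, adjusted p = 3.32e-05) and SHH tumors (log2 fold change 0.93 ± 0.21, adjusted p = 0.0267). Of 8 other RNA polymerase I genes, 3 were higher and 1 lower in grafts, 2 and 1 in extracranial tumors, 3 and 1 in Myc tumors and 0 and 0 in SHH tumors. The lower one was Taf1b, a subunit of the promoter selectivity factor that Rrn3 contacts, with a log2 fold change of -0.72 ± 0.20 (adjusted p = 0.00761) in grafts, -0.67 ± 0.19 (adjusted p = 0.00808) in extracranial tumors and -0.99 ± 0.19 (adjusted p = 0.000635) in Myc tumors. Of the 11 exosome genes, which trim ribosomal RNA, 4 were higher in grafts, 2 in extracranial tumors, 4 in Myc tumors and 1 in SHH tumors, among them Exosc5 (log2 fold change 1.52 ± 0.30, adjusted p = 0.000767 in grafts). Of 15 Myc targets outside ribosome assembly, 10 were higher in grafts, 10 in extracranial tumors, 10 in Myc tumors and 0 in SHH tumors. In extracranial tumors 1 was lower. The counts of these lists stand beside 24.9% of all tested genes higher in grafts, 26.1% in extracranial tumors, 25.3% in Myc tumors and 2.44% in SHH tumors.

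**Figure D5:**
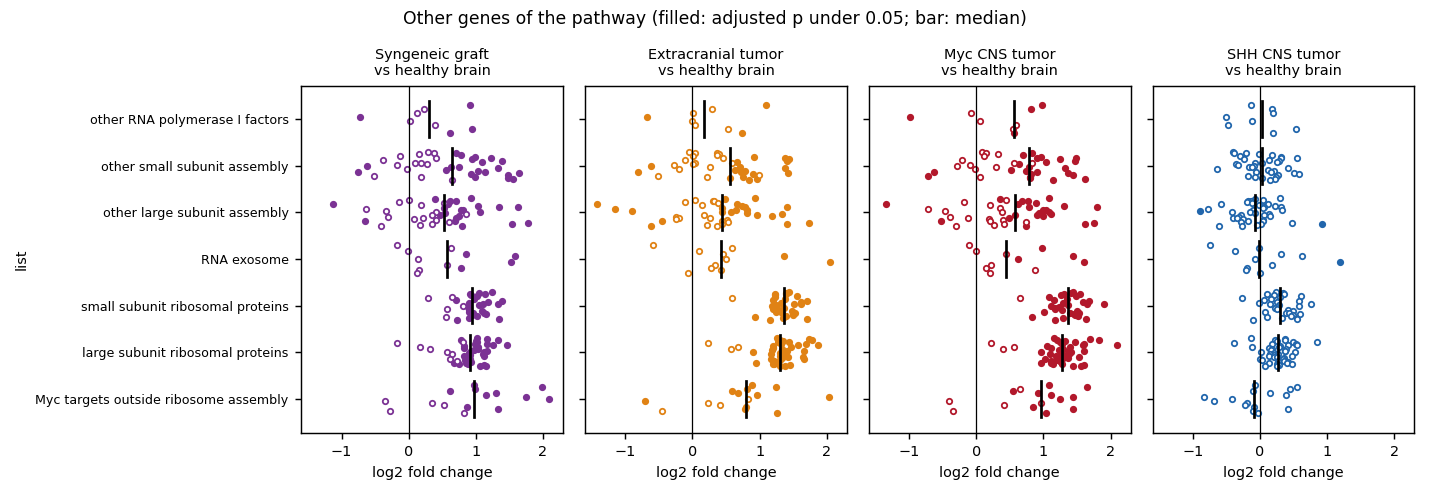
Log2 fold change over brain of the other genes of the pathway, by list, in 4 tumor groups. Filled points passed an adjusted p under 0.05 and bars are medians. Ribosomal protein genes form tight clusters near 1.3 in extracranial and Myc tumors and near 0.9 in grafts, and lie near 0.3 with open points in SHH tumors.

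Markers of cycling cells were higher in the same groups. The 12 cycling markers were higher in edgeR in 12 genes in grafts, 12 in extracranial tumors, 11 in Myc tumors and 1 in SHH tumors over brain, with summed levels of 1706 to 2118, 853 to 1877, 885 to 1094 and 298 to 1017 CPM, against 271 to 396 in brains. The part of cycling cells in the members' differences was not tested.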

How the data were processed

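Polyadenylated RNA was made into TruSeq Stranded mRNA libraries per the labels' protocols, and reads were aligned with STAR 2.5.3a to mm10 per the submitters' processing notes. The authors deposited 1 file of raw counts per gene for each of 17 libraries. The counting tool, its strand setting and its handling of multi-mapping reads are not given in the sources used here. Of 50600 gene IDs, 50376 matched GENCODE vM21 without their version (45737 with it). Exons of 21 members overlap a gene on the other strand and those of 5 a gene on the same strand.

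Genes passing filterByExpr of edgeR 4.0.16 (minimum count 10) numbered 21494 and held 99.96% of counts. The quasi-likelihood test (robust, TMM scaling, R 4.3.3) was fitted to all 17 libraries with a mean per group. The 7 comparisons were contrasts of these means, and 3 further fits added log2(CPM + 1) of Myc, Mycn or their sum as a slope. Benjamini-Hochberg adjustment ran over all tested genes. CPM used TMM-scaled library sizes, TPM used merged exon lengths, and ± after a log2 fold change is the SE. Replicate libraries differed by far more than sampling noise (chi-square per gene 71.4 to 969). Alternatives were other scalings, filters, DESeq2 1.42.0, limma 3.58.1 voom, replicate blocks, subsets of samples and each library left out. The contrasts in edgeR, limma and DESeq2 were tested on simulated counts. The slope was simulated in edgeR alone, on Myc, with less spread than in these data. Figures were made with matplotlib 3.10.9.

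Full values are given for members set by role, for the members with the smallest adjusted p and for those called against the majority, and for up to 2 genes of each other list with the smallest adjusted p. Mycl and the members Gnl2, Utp15, Nle1 and Nop10 were chosen for description after their values were seen. The members and lists were chosen with earlier results of these data known. Of 265 genes in the other 17 lists, 260 were matched, and the rest were not analysed here.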

Additional observations from a re-analysis of the deposited data

Results flagged for a closer look

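In 104 sets of libraries, 1 for each member and for Myc, Mycn and Smarcb1 in each group of 4, a library was marked where its gap to the nearest other library passed Dixon's critical share of the group's range. Chance marks about 1 in 20 such sets where the sets are independent and their values normally distributed. These sets share libraries, so that rate cannot be set against the 13 sets marked here. Extracranial tumor 3 was the highest of its group in 6 of them. It had 172.3 CPM of Polr1a, against 66.5 to 78.0 in the other extracranial tumors, 66.3 CPM of Polr1c, against 34.5 to 39.2, and 203.7 CPM of Nop58, against 103 to 120.2. It also had 1167 CPM of Npm1, against 676 to 729, 58.4 CPM of Utp15, against 47.1 to 48.4, and 259 CPM of Gnl2, against 55.2 to 77.3. Myc tumor 2 was the lowest of its group in Dkc1 (49.3 CPM, against 65.3 to 67.3) and Wdr43 (94.9 CPM, against 122.7 to 124) and the highest in Gnl2 (177 CPM, against 82.0 to 98.0) and Nip7 (85.6 CPM, against 48.96 to 54.7). Pno1 stood out in Myc tumor 3 (157.5 CPM, against 52.0 to 67.5) and in extracranial tumor 4 (92.7 CPM, against 37.9 to 41.4). Nop16 stood out in extracranial tumor 1 (130.5 CPM, against 49.8 to 52.5), which also held skeletal muscle transcripts.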

How the results depend on the processing

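No log2 fold change of a member that was called, as reported or under an alternative, changed sign. Among values that were not called there were 313 changes of sign over all comparisons and alternatives, with 17 members in SHH tumors over brain with total counts and 11 with upper quartile scaling. Counts of members moved as follows, and the cause was not tested. Counts under an alternative, here and above, have no share of all tested genes beside them. Against brain, the 1 lower in Myc tumors became 0 with upper quartile scaling, total counts, every gene with a count, the replicate block, the compared groups only, libraries from 1 series of file numbers, or without Healthy brain 1 and SHH tumor 1. The 0 higher in SHH tumors became 1 with DESeq2 and 6 with limma voom, and the 1 lower became 4 with limma voom and 0 with total counts, the compared groups only, or without Healthy brain 1 and SHH tumor 1. The 1 lower in extracranial tumors became 2 with RLE factors, DESeq2 or limma voom, and 0 with upper quartile scaling, the replicate block, the compared groups only, without Healthy brain 1 and SHH tumor 1, or without extracranial tumors 1 and 2 (chosen after seeing the data). The 0 lower in grafts became 2 with DESeq2 and limma voom and 1 with the compared groups only or 1 series of file numbers. The 35 higher in Myc over SHH tumors became 20 with total counts. In extracranial over Myc tumors DESeq2 gave 2 lower. In grafts over Myc tumors 1 was lower with DESeq2, limma voom, the compared groups only, 1 series of file numbers, or without extracranial tumors 1 and 2. DESeq2 gave 4 positive slopes on Mycn and 8 on the sum. The 11 promoters with CACGTG became 4 upstream of the start alone. The numbers in the file names fell in a lower and a higher series, and what these stand for is not given in the sources used here. The comparison of extracranial tumors with brain could not be run within 1 series, because too few extracranial tumors had a number of the lower one. The part of the series in that comparison was not tested.

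For single members, Myc and Mycn, 325 results crossed to the side of no call and 113 to that of a call, over all comparisons and alternatives. Leaving out each library in turn gave 26 to 33 higher and 0 lower in grafts over brain, 20 to 30 higher and 0 to 1 lower in extracranial tumors, 29 to 37 higher and 0 to 1 lower in Myc tumors, 0 to 1 higher and 0 to 1 lower in SHH tumors, 28 to 37 higher in Myc over SHH tumors, and 0 to 1 lower in grafts over Myc tumors. Calls that held without each library were 25 of 31 in grafts, 20 of 30 in extracranial tumors, 28 of 34 in Myc tumors and 27 of 35 in Myc over SHH tumors, and the lower calls of Rrn3 and Bysl did not hold. Same-numbered libraries did not deviate together (correlation of deviations -0.18 to 0.14 over 31 pairs), so the numbers were not taken as pairs. With the replicate block, 31 members were higher in grafts, 29 in extracranial tumors, 36 in Myc tumors and 0 in SHH tumors over brain, 36 in Myc over SHH tumors, and 1 (SHH tumors over brain) was lower. Total counts moved the median of all genes by 0.24 in SHH tumors over brain and -0.27 in Myc over SHH tumors, and upper quartile scaling by 0.11 and 0.13 in Myc and SHH tumors over brain.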
